A study of Drosophila melanogaster with 4 samples.

Results

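Long noncoding RNA (lncRNA) genes were followed in OSCs, a cultured line of somatic cells from the Drosophila melanogaster ovary. A gene was counted as a member when its RefSeq transcripts are noncoding, its current symbol begins with lncRNA: or asRNA:, and its FPKM, summed over transcripts, averaged at least 1 over the 4 libraries. FPKM is the number of reads relative to transcript length and to the mapped reads of the library. The rule kept 277 of 1958 listed lncRNA genes, among 7882 genes of all kinds that reached the same level. Of the 277 members, 131 carry the prefix lncRNA: and 146 the prefix asRNA:, given to genes antisense to another gene. Because the minimum averages all libraries, a gene that is high in a single library can pass through that library alone. At least 1 FPKM was reached in all 4 libraries by 198 members, in 3 libraries by 38, in 2 libraries by 30 and in 1 library by 11. For 7 of these last 11 that library was siMi-2 and for 4 it was the library labelled siRpd3. Counts and medians over the members are therefore given as a description.

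The study depleted factors of piRNA-guided transcriptional silencing. The libraries named sipiwi, siMi-2 and siRpd3 come from OSCs given an siRNA to piwi, to Mi-2 and to Rpd3. The control siRNA is called siGFP by the study and EGFP in the sample labels. Piwi is the nuclear protein that piRNAs guide to nascent transposon transcripts, Mi-2 is a nucleosome-remodelling ATPase and Rpd3 is a histone deacetylase. Poly(A) RNA was collected after 4 days of knockdown and sequenced as 1 library per condition, so that no difference has a replicate check and no p-value is given. All libraries come from a single, unfractionated cell line at 26 °C, and a lower value can mean fewer cells that make an RNA or less of it per cell, which cannot be told apart.

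Long noncoding RNAs are transcribed and often spliced and polyadenylated like mRNAs but carry no long open reading frame. Some act as scaffolds that gather proteins in the nucleus, some are transcribed across a gene on the other strand, and some are the precursors from which miRNAs or snoRNAs are cut. In the fly, the best known are the roX RNAs of X chromosome dosage compensation and Hsromega, which organizes nuclear speckles of RNA-binding proteins. Most others are known only by a CR number.

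Each library held between 32638866 and 38060116 mapped reads. The targeted RNAs were at 38.9 FPKM in sipiwi against 73.5 in siGFP for piwi, and at 5.67 FPKM in siMi-2 against 34.4 in siGFP for Mi-2. Rpd3 RNA, listed as HDAC1, was at 104 FPKM in the library labelled siRpd3 against 71.3 in siGFP and was not lower, a limit on every direction drawn from that library. The paper reports a check of knockdown efficiency in OSCs, with western blots that include Rpd3 protein, which RNA levels do not measure. The somatic markers tj, Fas3, fs(1)Yb, zfh1 and piwi were each detected in all 4 libraries. Of 6 germ cell markers, 5 could be matched, and only aub and bam averaged at least 1 FPKM. aub was at 0.448, 8.06 and 1.98 FPKM in sipiwi, siMi-2 and siRpd3 against 0.328 in siGFP, and vas was at 0.298, 2.66 and 0.429 against 0.0243. Both were highest in siMi-2. bam was highest in sipiwi, at 4.95, 3.27 and 2.39 FPKM against 2.24, AGO3 was at 0.505, 1.04 and 0.887 against 0.607, and osk was at or below 0.0916 FPKM in every library. Over all genes the median log2 ratio to siGFP was 0.29, 0.12 and 0.69 in sipiwi, siMi-2 and the siRpd3-labelled library, and lncRNA ratios are read beside these shifts. Ratios are of FPKM + 0.1, a pseudocount that makes the changes of weakly expressed genes look smaller. Intervals are exact 95% Clopper-Pearson intervals on recovered reads. They set library against library rather than condition against condition, and hold counting error alone.

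lncRNA genes were expressed at lower levels than mRNA genes. Their median was 3.91, 3.96 and 4.55 FPKM in sipiwi, siMi-2 and the siRpd3-labelled library against 3.04 in siGFP, while the 7497 mRNA genes had medians of 19.7, 16.1 and 26.0 FPKM against 14.5. Only 8 of the 277 members were in the upper quartile of mRNA genes by mean FPKM. The median member was covered by 117, 126 and 128 reads in the knockdown libraries against 85 in siGFP. In sipiwi, siMi-2 and the siRpd3-labelled library 35, 29 and 19 members were below 1 FPKM, against 48 in siGFP. The members were also shorter, with a median length of 776 nt (from 174 to 5936 nt) against 1807 nt for mRNA genes. Outside the rule, 1012 of the 1681 lncRNA genes below the minimum had 0 reads in all libraries and 433 had more than 3 reads in at least 1 library.

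A few abundant members made up much of the total. The members held 0.559%, 0.564% and 0.459% of all transcript FPKM in sipiwi, siMi-2 and the siRpd3-labelled library against 0.614% in siGFP. CR34335, a 249-nt RNA inside a DIP-alpha gene span on the same strand (dm6, chrX:3545750-3546110), was the most abundant, with 1070, 1421 and 241 FPKM in sipiwi, siMi-2 and the siRpd3-labelled library against 2282 in siGFP. CR40469, a 214-nt RNA at chrX:122493-122706 that overlaps no protein-coding gene, had 565, 736 and 92.6 FPKM in the same libraries against 944 in siGFP. Both RNAs were lowest in the siRpd3-labelled library, with log2 ratios of -3.25 (interval -3.31 to -3.18) for CR34335 and -3.35 (interval -3.47 to -3.23) for CR40469, and highest in siGFP. Whether these short RNAs share reads was not examined. Without them, the other members held 0.351%, 0.320% and 0.407% of transcript FPKM in the knockdown libraries against 0.252% in siGFP, so that their share was higher in every knockdown library. Such a share also depends on the total FPKM of each library, which differs between them. By reads, all members together held 0.326%, 0.340% and 0.318% of mapped reads against 0.332% in siGFP.

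The next members by level moved differently from these 2. CR43264, which lies opposite CG15765, was at 296, 178 and 95.6 FPKM against 90.0 in siGFP, with a log2 ratio of 1.71 (interval 1.61 to 1.81) in sipiwi and 0.09 (interval -0.04 to 0.21) in the siRpd3-labelled library. CG15765 itself was at 0 FPKM in sipiwi, siMi-2 and siGFP and at 0.0479 in the siRpd3-labelled library. CR42491, the host of snoRNA:Psi18S-531, was at 160, 169 and 146 FPKM against 121, and no ratio reached 2-fold. It overlaps the ribosomal protein gene RpL22 on the same strand, and 50.5% of its exon bases lie in exons of protein-coding genes. Reads of overlapping exons cannot be told apart. asRNA:CR44704 was at 66.9, 185 and 157 FPKM against 35.9, with log2 ratios of 0.90, 2.36 and 2.12.

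**Figure D1:**
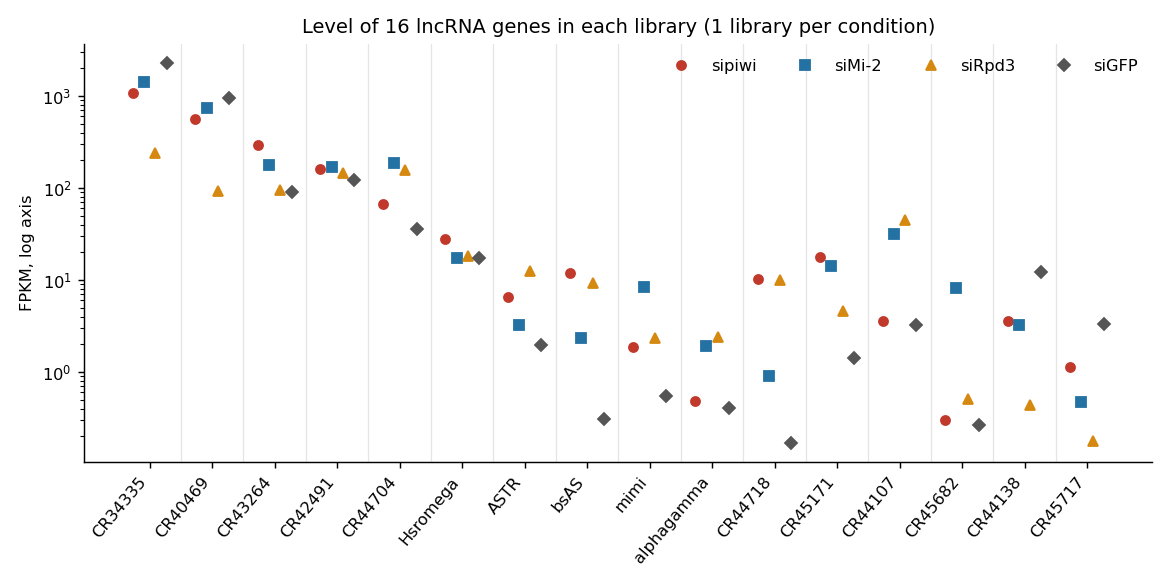
FPKM (log axis) of 16 lncRNA genes in the sipiwi, siMi-2, siRpd3 and siGFP libraries, each point 1 library. CR34335 and CR40469 are lowest in siRpd3 at 241 and 92.6 FPKM, CR44138 and CR45717 are highest in siGFP, and bsAS and CR44718 are lowest in siGFP at 0.310 and 0.170 FPKM.

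In sipiwi, 52 lncRNA genes were more than 2-fold over siGFP (18.8%, against 11.4% of all genes). In siMi-2 there were 80 (28.9%, against 15.6%), and the siRpd3-labelled library had 92 (33.2%, against 41.0%). In sipiwi, 10 lncRNA genes were below 0.5-fold (3.61%, against 2.56% of all genes), while siMi-2 had 25 (9.03%, against 3.45%) and the siRpd3-labelled library had 32 (11.6%, against 7.38%). With each library scaled to the median ratio of all genes, the split was 39 higher to 20 lower for sipiwi and 70 to 30 for siMi-2. For the siRpd3-labelled library it was 53 to 71 and thus turned round. The median log2 ratio of the members was 0.27, 0.27 and 0.49 in sipiwi, siMi-2 and the siRpd3-labelled library, against 0.29, 0.12 and 0.72 for mRNA genes. In siMi-2, 1 of the calls rests on at most 3 reads in both libraries, that of CR44719, and is not read as a difference.

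Much of the distance between lncRNA genes and all genes was shared by mRNA genes of like length and level. Each member was set beside the 50 mRNA genes nearest in transcript length and mean FPKM, and these sets can share genes. Among the nearest mRNA genes, 15.8%, 31.0% and 36.0% were above 2-fold in sipiwi, siMi-2 and the siRpd3-labelled library, and 6.71%, 5.94% and 15.5% were below 0.5-fold. The median member differed from its nearest mRNA genes by -0.03, -0.23 and 0.05 on the log2 scale in the same order. Single members lay far on both sides of them: more than 1 log2 unit above were 38, 42 and 72 members and more than 1 below were 21, 59 and 67. The excess of higher calls over all genes in siMi-2 was thus present in the nearest mRNA genes too, while lower calls were at 9.03% of lncRNA genes against 5.94% of their nearest mRNA genes.

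**Figure D2:**
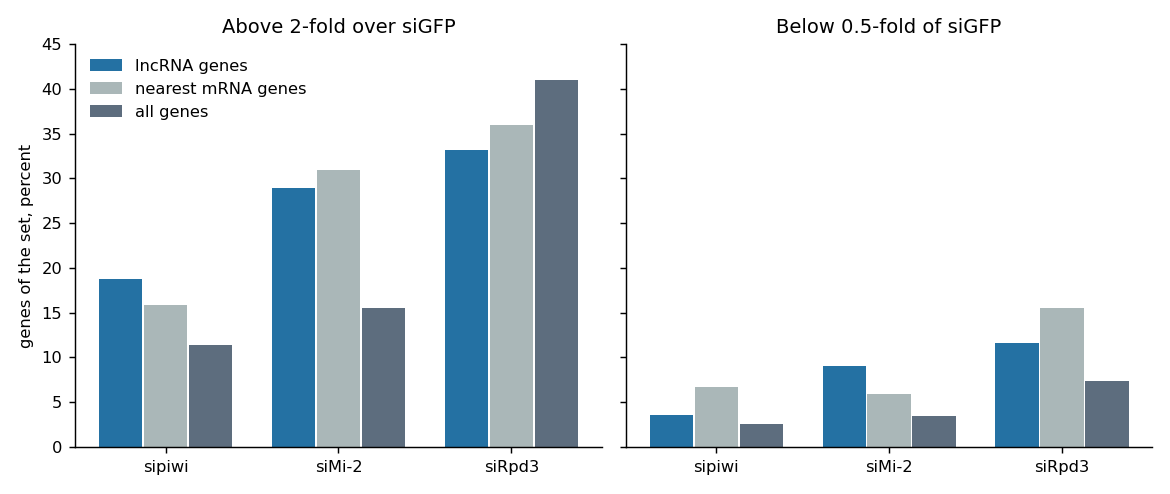
Percent of genes above 2-fold (left) and below 0.5-fold (right) of siGFP in each knockdown library, for the 277 lncRNA genes, their nearest mRNA genes by length and level, and all 7882 genes. In siMi-2, 28.9% of lncRNA genes, 31.0% of nearest mRNA genes and 15.6% of all genes are higher.

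Among the 198 members at 1 FPKM or more in all 4 libraries, 26 were above 2-fold and 3 below 0.5-fold in sipiwi. For siMi-2 the counts were 38 and 14, and for the siRpd3-labelled library 51 and 22. Their median log2 ratios were 0.27, 0.15 and 0.33. The 6667 mRNA genes that met the same condition had medians of 0.29, 0.06 and 0.63, with 9.26%, 10.0% and 38.3% higher and 1.65%, 2.75% and 6.83% lower. In this set, which was chosen after the values were seen, the median difference of a lncRNA gene from its nearest mRNA genes was -0.05, -0.32 and -0.21 on the log2 scale.

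In sipiwi and in the siRpd3-labelled library, lncRNA medians varied less with transcript length than mRNA medians did, while in siMi-2 they ran between 0.02 and 0.33 against 0.06 and 0.22 for mRNA genes. The 68 lncRNA genes under 500 nt had median log2 ratios of 0.32, 0.29 and 0.43 in sipiwi, siMi-2 and the siRpd3-labelled library, and the 26 of 2000 nt or more had 0.30, 0.02 and 0.78. For mRNA genes the medians were -0.03, 0.22 and -0.46 under 500 nt, and 0.47, 0.19 and 1.38 at 2000 nt or more. Across genes, the Spearman correlation of the ratio with length was 0.01, -0.04 and 0.08 over the 277 lncRNA genes and 0.29, 0.06 and 0.50 over the 7497 mRNA genes. The points share the same libraries and genes are not independent replicates. In the siRpd3-labelled library, lncRNA genes under 500 nt thus had a median of 0.43 where mRNA genes of that length had -0.46. These classes are matched on length alone, and mRNA ratios there also fell with level (Spearman -0.47). From the nearest mRNA genes in length and level, the median difference there was 0.57 under 500 nt and -0.75 at 2000 nt or more.

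**Figure D3:**
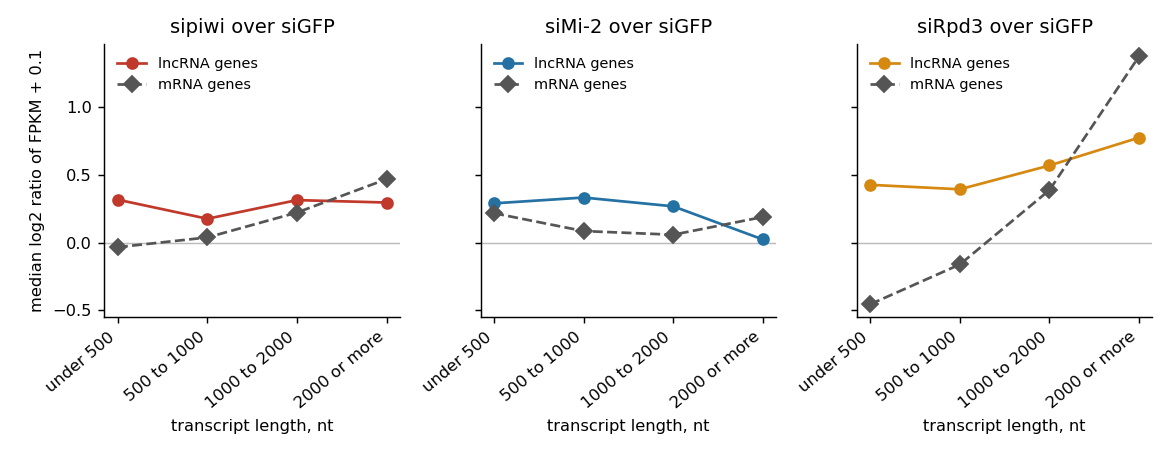
Median log2 ratio of FPKM + 0.1 over siGFP by transcript length class, for lncRNA genes (filled circles, coloured line) and mRNA genes (grey diamonds, dashed line), 1 panel per knockdown library. In siRpd3 the lncRNA medians stay between 0.39 and 0.78, while the mRNA medians run between -0.46 under 500 nt and 1.38 at 2000 nt or more. The classes are matched on length, not on level.

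The position of a lncRNA gene relative to protein-coding genes went with its ratio in siMi-2. In the siRpd3-labelled library, distance from such genes went with the ratio as well. By gene span, 191 members overlap a protein-coding gene on the opposite strand, 17 overlap one on the same strand only and 69 overlap none. The library kit does not mark the strand as far as the sources say, so that reads of overlapping genes cannot be told apart. The median log2 ratio in siMi-2 was 0.95 for the 69 members without overlap, with 34 higher and 8 lower, and 0.19 for the 191 opposite a gene, with 43 higher and 15 lower. The nearest mRNA genes of these groups were higher at 33.0% and 30.9%, near each other, and lower at 6.55% and 5.75%. Of all genes, 15.6% were higher and 3.45% lower in siMi-2. The members without overlap were higher at 49.3% and lower at 11.6%, so that both shares exceeded those of their nearest mRNA genes. Of the 69, the 33 that lie more than 1000 nt from a protein-coding gene had a median of 1.24, with 20 higher (CR44719 among them) and 1 lower, where 35.6% of their nearest mRNA genes were higher, and the 36 that lie closer had a median of 0.39, with 14 higher and 7 lower, where 30.6% of the nearest mRNA genes were higher. Of the 33, 28 had more than 3 reads in siGFP, and 15 of these 28 were higher with a median of 1.01. The minimum averages all libraries, so that a member can pass it through siMi-2 alone. The 11 members at 1 FPKM in a single library, siMi-2 for 7 of them, were not removed from these groups. Their siMi-2 median was 2.77, with 9 higher. For sipiwi and for the siRpd3-labelled library the 33 had medians of 0.49 and 1.18, with 11 and 18 higher. Higher there were 18.9% and 35.8% of their nearest mRNA genes and 11.4% and 41.0% of all genes. Among the 28 with more than 3 reads in siGFP, the medians in these libraries were 0.30 and 0.72, with 6 and 13 higher. The 36 closer members had medians of 0.29 and 0.28 in the same libraries, with 6 and 7 higher. Of their nearest mRNA genes, 15.3% and 29.9% were higher. Of the 5 germ cell markers matched, aub, vas and AGO3 were highest in the same siMi-2 library while bam and osk were highest in sipiwi, and their part in these counts was not tested.

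**Figure D4:**
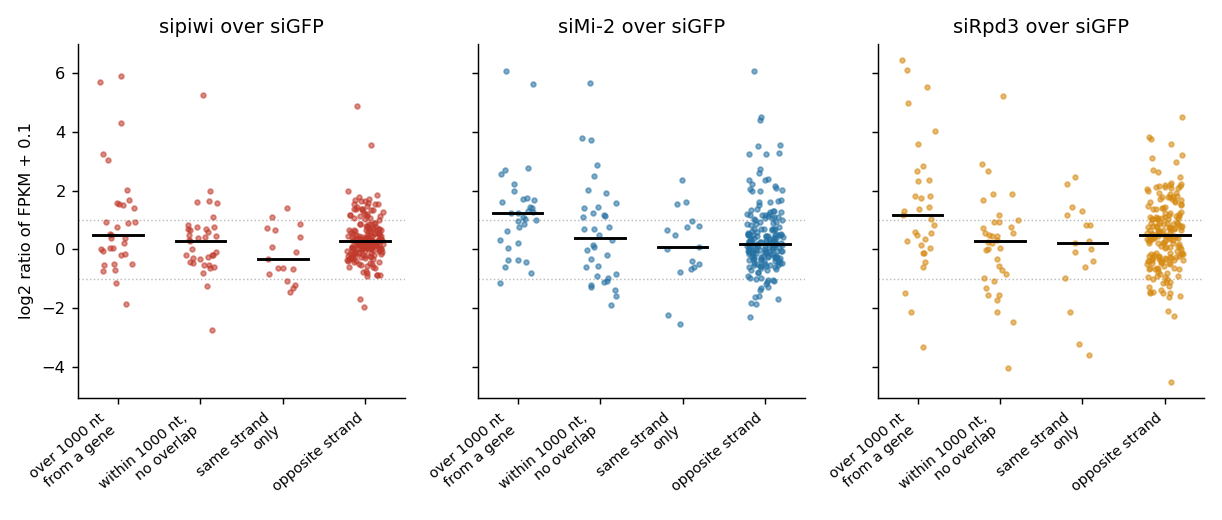
Log2 ratio of FPKM + 0.1 over siGFP of each lncRNA gene by position: more than 1000 nt from a protein-coding gene (33), without overlap but within 1000 nt (36), overlap on the same strand only (17) and on the opposite strand (191). Points are genes, black bars are medians and dotted lines mark 2-fold and 0.5-fold. In siMi-2 the medians are 1.24, 0.39, 0.09 and 0.19.

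Where a lncRNA gene lies opposite an expressed gene, the 2 ratios went together most where their exons overlap. Over 180 such pairs, the Spearman correlation of the lncRNA ratio with that of its partner was 0.46, 0.66 and 0.68 in sipiwi, siMi-2 and the siRpd3-labelled library. For the 119 pairs in which at least 50% of the lncRNA exon bases lie in exons of a protein-coding gene it was 0.65, 0.78 and 0.81, and for the 61 others 0.12, 0.41 and 0.45. The points share libraries and, where exons overlap, may share reads. Shares given for single pairs count exons of any protein-coding gene, on either strand. For CR44107 opposite CG5835, with 94.2% shared, the lncRNA was at 3.60, 32.0 and 45.1 FPKM against 3.23 in siGFP. CG5835 was at 13.8, 131 and 161 FPKM against 14.5. For CR45682 and CG10657, with 74.0% shared, the lncRNA was at 0.298, 8.18 and 0.503 FPKM against 0.262, and the gene at 0.448, 19.5 and 0.442 against 0.340. In both pairs the lncRNA and its partner are high in the same libraries, and there the lncRNA stays below its partner. CR44704 and CG10527, with 62.2% shared, had like ratios as well, with 2.36 and 2.34 in siMi-2. CR45130 opposite Vps13, a lipid transfer protein gene, was at 0.130, 0.617 and 4.51 FPKM against 0.225, and CR45202 opposite Sec31, a subunit of the COPII vesicle coat, at 4.47, 1.21 and 8.84 against 1.05. Both were highest in the siRpd3-labelled library, as were their partners. Of the exon bases of CR45130 and CR45202, 87.7% and 80.7% are shared.

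**Figure D5:**
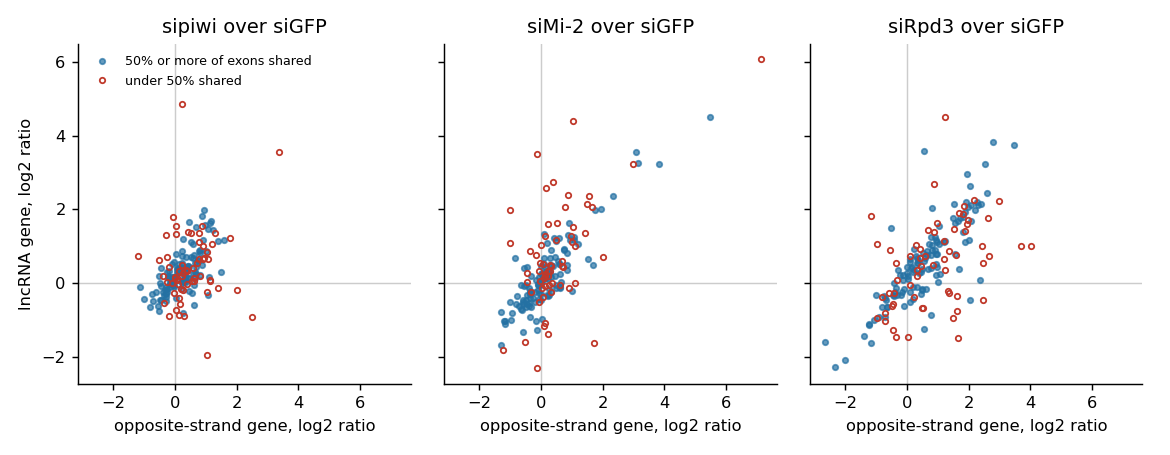
Log2 ratio over siGFP of 180 lncRNA genes (vertical) against that of the expressed gene on the opposite strand (horizontal), 1 panel per knockdown library. Filled blue points share at least 50% of lncRNA exon bases with a protein-coding gene (119 pairs, Spearman 0.65, 0.78 and 0.81), open red points less (61 pairs, 0.12, 0.41 and 0.45).

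Of the pairs with less exon overlap, some moved apart, among them that of the named antisense RNA bsAS, and some moved together. asRNA:bsAS is transcribed opposite bs, the fly serum response factor gene, and shares 0% of its exon bases with coding-gene exons. It was at 11.9, 2.36 and 9.32 FPKM in sipiwi, siMi-2 and the siRpd3-labelled library against 0.310 in siGFP, on 557, 105 and 374 reads against 14. The log2 ratios were 4.87 (interval 4.12 to 5.75), 2.59 (1.82 to 3.48) and 4.52 (3.77 to 5.40). bs was at 5.29, 5.01 and 10.7 FPKM against 4.44 in siGFP, with ratios of 0.25, 0.17 and 1.25, so that bsAS exceeded bs in sipiwi and lay below it in siGFP. CR45171 went with its partner, at 17.8, 14.1 and 4.61 FPKM against 1.41, while Cpr67Fb, of the cuticle protein family, was at 31.1, 24.0 and 5.90 against 2.92. Of the CR45171 exon bases, 38.0% lie in exons of protein-coding genes. asRNA:CR43615 lies opposite dec, a gene of the eggshell, and was at 4.33, 0.442 and 3.76 FPKM against 1.81, with dec at 73.9, 9.07 and 115 against 21.4. Both were below siGFP in siMi-2 and above it in the other knockdown libraries, and 39.7% of the CR43615 exon bases are shared in this way. CR32027, opposite the citrate transporter gene Indy, was at 2.67, 0.884 and 6.02 FPKM against 2.92, and was below 0.5-fold in siMi-2 where Indy was at 21.4 FPKM against 6.41. asRNA:CR43629, opposite CG31522, had its lowest value in siMi-2, with 0.977 FPKM against 5.27 in siGFP, while CG31522 was at 15.4 against 16.9.

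Of the lncRNA genes listed, 24 have a name other than a CR number, and 5 of them are members. Hsromega, whose long nuclear transcripts gather hnRNP proteins in omega speckles, was at 27.9, 17.2 and 18.0 FPKM in sipiwi, siMi-2 and the siRpd3-labelled library against 17.4 in siGFP. Its log2 ratio was 0.68 (interval 0.59 to 0.76) in sipiwi, and the other knockdown libraries had -0.02 (siMi-2) and 0.05 (siRpd3). The 3 transcripts of 1176 to 1888 nt held 1484, 866 and 814 reads against 903, and the 3 transcripts of 13374 to 21216 nt held 1414, 1045 and 827 against 895, but reads of exons that the transcripts share cannot be placed. Of 9 omega speckle proteins, 3, 0 and 8 were above 2-fold in the same libraries, against 11.4%, 15.6% and 41.0% of all genes, and none was below 0.5-fold. In the siRpd3-labelled library Hsromega had a log2 ratio of 0.05, while the 9 genes had a median of 1.29 and ran between 0.73 for caz and 2.24 for nonA.

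asRNA:ASTR, opposite the CCR4-NOT subunit gene Rga, was at 6.50, 3.20 and 12.5 FPKM against 1.94 in siGFP, with log2 ratios of 1.69, 0.69 and 2.63. Rga was at 33.8, 18.3 and 62.2 FPKM against 14.9, in the same order of libraries. Of the ASTR exon bases, 53.9% lie in exons of protein-coding genes. mimi, at chr3R:23983503-23985065 and 148 nt from CG13603, was at 1.85, 8.46 and 2.33 FPKM against 0.552, and its log2 ratio in siMi-2 was 3.72 (interval 3.15 to 4.34). CG13603 was at 98.0, 113 and 55.9 FPKM against 125, and was not higher in siMi-2. The alphagamma-element CR32865, which belongs to the heat-inducible region of the Hsp70 genes, was at 0.484, 1.90 and 2.42 FPKM against 0.402. It is 7560 nt from Hsp70Ba, which was at 0.950, 3.38 and 16.9 FPKM against 1.41, and both were highest in the siRpd3-labelled library. Of its exon bases, 45.8% are an annotated Dm88 insertion, and the Dm88 transposon was at 1.11, 5.30 and 2.84 FPKM against 1.06.

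The dosage compensation RNAs were below the minimum. roX1, which coats the male X chromosome together with the MSL proteins, was at 0.248, 0.440 and 0.824 FPKM against 0.965 in siGFP, and roX2 had 2, 4 and 0 reads against 2. All 5 MSL protein genes passed the minimum, with 3 higher in the siRpd3-labelled library, where 41.0% of all genes were, and no call in the others. The lncRNAs bxd, iab4 and iab8 of the bithorax region, and cherub, had 0 reads in every library, where 3 reads on an RNA of 1000 nt would give 0.0788 to 0.0919 FPKM. At the minimum itself, CR44999 and CR43981 fell just outside with means of 0.984 and 0.976 FPKM, and CR44298 and CR44907 just inside with 1.01 each.

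Of 6 members that hold an annotated miRNA or snoRNA on their own strand, none was called in sipiwi, while 1 was lower in siMi-2 and the siRpd3-labelled library had 1 higher. With 11.4% of all genes higher in sipiwi, 3.45% lower in siMi-2 and 41.0% higher in the siRpd3-labelled library, 6 genes are too few to read these counts as many or few. CR31044, the host of mir-279 and mir-996, was at 8.19, 7.14 and 7.04 FPKM against 5.14. CR43651, the host of mir-14, was at 1.38, 0.653 and 1.61 FPKM against 1.58, with a log2 ratio of -1.16 (interval -1.78 to -0.53) in siMi-2. CR45184, which holds 5 snoRNAs inside Sf3b3, was at 73.4, 35.0 and 104 FPKM against 46.1. Among 8 snoRNP core protein genes, which pack these snoRNAs, 1 was above 2-fold, in the siRpd3-labelled library (against 41.0% of all genes there). Of 11 genes of the nuclear exosome and its cofactors, which trim and degrade noncoding RNA, 1 was below 0.5-fold in siMi-2. This was Dis3, at 19.9 FPKM against 43.3 in siGFP, and 3.45% of all genes were lower in siMi-2. In the siRpd3-labelled library 2 of the 11 were above 2-fold, Rrp6 and Rrp46, against 41.0% of all genes. These 11 genes are too few to read the counts as many or few.

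The highest ratio in sipiwi among members with more than 3 reads in both libraries belonged to CR44718, beside the ionotropic receptor gene Ir68a. CR44718 (chr3L:11236500-11237620, minus strand) was at 10.2, 0.913 and 10.0 FPKM in sipiwi, siMi-2 and the siRpd3-labelled library against 0.170 in siGFP, on 437, 37 and 367 reads against 7. Its log2 ratios were 5.26 (interval 4.22 to 6.57), 1.91 (0.89 to 3.23) and 5.23 (4.19 to 6.54). CR44719 lies inside its span on the plus strand and had 72, 2 and 71 reads against 0 in siGFP, which is at least 23.1-fold higher in sipiwi and at least 26.6-fold higher in the siRpd3-labelled library against a floor of 3 reads in siGFP. Ir68a, known for its role in sensing moist air, is on the minus strand 282 nt from CR44718 and was at 14.8, 1.70 and 14.8 FPKM against 0.0892. The strand of reads is not marked as far as the sources say, so that reads of CR44719 may be those of CR44718. CR44718, with CR44719 inside it, and Ir68a were high in the same libraries, sipiwi and siRpd3, and low in siGFP. The genes around them did not share this pattern: CG42671 had log2 ratios of 0.73, 0.83 and 3.27, and scyl, an inhibitor of TOR signalling, had -2.20, 0.20 and -1.36. Between these lies CR44716, at 0.564, 2.44 and 0.146 FPKM against 0.975.

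In all, 7 members, CR44719 among them, had 0 reads in siGFP, and these were singled out after their values were seen. Such a member passes the minimum through knockdown libraries alone, so that a value far above siGFP was fixed by the rule. The fold values and the highest library are given as a description. Against a floor of 3 siGFP reads, CR45234 was at least 47.9-fold higher in sipiwi and at least 80.2-fold higher in the siRpd3-labelled library (149 and 214 reads), and had 4 reads in siMi-2. CR44691, CR44638 and CR42736 were highest in siMi-2, with 219, 81 and 95 reads there, and at least 74.1-fold, 27.4-fold and 32.2-fold higher. CR44691 lies opposite CG6398, which was at 1.01, 82.3 and 4.49 FPKM against 0.486, so that both were highest in siMi-2. CR45564 had 35, 119 and 72 reads, and CR45733 had 9, 5 and 28 reads. Together with CR44719, these 7 include 3 that were highest in the siRpd3-labelled library by FPKM and 4 that were highest in siMi-2.

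A further member, CR44804, 14769 nt from the nearest protein-coding gene, was at 10.7, 8.91 and 5.94 FPKM against 2.57 and above 2-fold in all 3 knockdown libraries. With each library scaled to the median ratio of all genes, its log2 ratio in the siRpd3-labelled library was 0.50. It was not above 2-fold there under that scaling. CR44379 was above 2-fold in all 3 as well, at 0.896, 2.07 and 3.92 FPKM against 0.233, but on 4 siGFP reads, so that its ratio of 3.60 in the siRpd3-labelled library has an interval of 2.22 to 5.49. Relative to its nearest mRNA genes, asRNA:CR44107 was 3.04 higher in siMi-2 and 3.72 in the siRpd3-labelled library.

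At the other end, CR44138 was lower in every knockdown library. It was at 3.62, 3.25 and 0.435 FPKM in sipiwi, siMi-2 and the siRpd3-labelled library against 12.1 in siGFP, on 68, 58 and 7 reads against 219. The log2 ratios were -1.71 (interval -2.11 to -1.32), -1.86 (-2.29 to -1.45) and -4.51 (-5.48 to -3.59). It lies opposite CG9813, which was at or below 0.146 FPKM in every library. CR45717, inside the MFS3 span on the same strand, was at 1.13, 0.477 and 0.176 FPKM against 3.29, and MFS3, of the major facilitator transporter superfamily, was at 221, 131 and 66.4 against 517. Both were highest in siGFP and lowest in the siRpd3-labelled library. CR43765 was at 2.74, 3.31 and 0.312 FPKM against 6.66, with a log2 ratio of -4.04 (interval -5.20 to -2.87) in the siRpd3-labelled library on 4 reads, and CR44458 at 3.65, 2.09 and 0.748 against 4.60. CR44127 and CR43890 had their lowest values in siMi-2, with 1.18 FPKM against 4.64 and 0.374 against 2.12 in siGFP. CR42862, of 5 transcripts, was at 11.8, 19.4 and 52.4 FPKM against 29.8, and was below 0.5-fold in sipiwi, with a log2 ratio of -1.33.

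The knockdown libraries called 13 members in opposite directions. No count of such calls over all genes stands beside this, so that 13 is not read as many or few. A member can also pass the minimum through siMi-2 alone. In 10 of the 13 siMi-2 was the high library: CR43785, CR45566, CR44552, CR44043, CR43644, CR44298, CR45327, CR44317, CR44716 and CR45640. CR43785, 201 nt from hng3, had 0 reads in sipiwi against 9 in siGFP, which is at least 3.11-fold lower, and was at 9.23 FPKM in siMi-2 against 0.573, where hng3 was at 70.5 against 3.25. CR45566 was at 15.6 FPKM in siMi-2 and 0.570 in the siRpd3-labelled library against 1.27 in siGFP, and CR44043 at 5.43 and 0.358 against 1.09. CR44552 had 2 reads in sipiwi and 83 in siMi-2 against 11, with log2 ratios of -1.85 (interval -2.84 to -0.27) and 2.77 (1.88 to 3.82). CR45327, opposite the transcription elongation gene Rtf1, was lowest in sipiwi with 0.564 FPKM and highest in siMi-2 with 6.13 against 2.49. For CR44298 the interval of the lower call, in the siRpd3-labelled library on 2 reads, ran from -2.61 to 0.67 and thus held 0, as did that of CR45566 there (-2.11 to 0.09). The remaining 3, CR43615, CR32027 and CR44953, were low in siMi-2, where CR44953 was at 8.73 FPKM against 21.4, and high in the siRpd3-labelled library, where it was at 47.7. With each library scaled to the median ratio of all genes, their log2 ratios in the siRpd3-labelled library were 0.35, 0.34 and 0.46, so that none of the 3 was above 2-fold there. Under the same scaling CR45640 had 0.89 in siMi-2 and was not above 2-fold there.

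Annotated transposon insertions made up at least 20% of the exon bases of 4 members. Besides the alphagamma-element these are CR43241 and CR43256, with INE-1 sequence, and CR43488, with Rt1a. None of the 4 was called in sipiwi. In siMi-2, 1 was higher (against 15.6% of all genes), and in the siRpd3-labelled library 2 were higher and 1 lower (against 41.0% and 7.38%). CR43256 was the lower one, at 1.84, 2.04 and 0.568 FPKM against 1.76 with a log2 ratio of -1.48 (interval -2.42 to -0.52) there. CR43241 was at 38.5, 40.2 and 17.4 FPKM against 23.3, and CR43488 at 2.30, 3.62 and 5.98 against 2.21, while the Rt1a transposon was at 1.19, 2.06 and 0.714 against 0.459. The highest values of CR43488 and of Rt1a were thus in different libraries.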

How the data were processed

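The authors mapped the reads with bowtie2 2.2.4 to the dm6 genome and a transcriptome, and deposited FPKM per transcript. Each of the 4 conditions is 1 library. From the steps between FPKM values, mapped reads, transcript lengths and whole reads were recovered (97.6% to 97.9% of values of intronless genes were whole within 0.005 reads). Reads summed over transcripts came to between 93.7% and 97.5% of mapped reads. Of 35327 rows, 99.3% were matched to RefSeq genes by accession or name, and 95 noncoding rows without a match, 24 of them at a mean of at least 1 FPKM, were not used here. Current symbols are from RefSeq and gene spans, strands and transposon insertions from the Ensembl annotation, both on Release 6 (dm6).

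Transcripts were summed per gene. The length of a gene is that of its transcript with the highest mean FPKM. A gene was called above 2-fold or below 0.5-fold of siGFP on log2(FPKM + 0.1). mRNA genes have coding transcripts only. Named members are those with a name, the 5 most abundant, the 5 highest and 5 lowest ratios per library with more than 3 reads in both libraries, the 3 farthest from their nearest mRNA genes on either side, those called in opposite directions and those at the minimum. Members and lists were chosen with earlier results of these data known. Alternatives were other pseudocounts, minimum values, thresholds, scaling, transcript choice, subsets of members and nearest mRNA sets. The recovery and the calls were tested on simulated data. Python 3.11.15 was used with scipy 1.17.1, pandas 2.3.3, matplotlib 3.10.9 and numpy 2.4.6.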

Additional observations from a re-analysis of the deposited data

How the results depend on the processing

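Counts are given as higher and lower in sipiwi, siMi-2 and the library labelled siRpd3. A pseudocount of 1 FPKM lowered the higher counts to 29 in sipiwi and 48 in siMi-2, the lower count in siMi-2 to 13 and the siRpd3 median to 0.34. At a minimum mean of 0.3 FPKM (432 members), 89, 133 and 172 were higher, 26 and 40 were lower in sipiwi and siMi-2, and the siRpd3 median was 0.62. At a minimum of 3 FPKM (172 members), 28, 41 and 49 were higher, 6 and 12 were lower in sipiwi and siMi-2, and in siRpd3 the median was 0.31 and the difference from the nearest mRNA genes -0.071. Scaling to the median of all genes gave 20 lower in sipiwi, 53 higher and 71 lower in siRpd3, and medians of 0.00, 0.15 and -0.17. With the transcript of highest mean FPKM in place of the sum, the difference from the nearest mRNA genes was -0.12 in siMi-2 and -0.082 in siRpd3. The 69 members without overlap gave 17, 34 and 25 higher, 4, 8 and 11 lower, medians of 0.38 in sipiwi and 0.95 in siMi-2, and differences of 0.39 in siMi-2 and 0.16 in siRpd3. A 1.5-fold threshold gave 89 higher in sipiwi and 29, 45 and 52 lower, and a 4-fold threshold 9, 31 and 36 higher and 1, 3 and 11 lower. In siRpd3 the difference was -0.10 with 200 nearest mRNA genes and -0.18 with mRNA genes near in length and siGFP FPKM. The 198 members at 1 FPKM in all libraries, chosen after seeing the data, gave 26, 38 and 51 higher, 3 and 14 lower in sipiwi and siMi-2, medians of 0.15 in siMi-2 and 0.33 in siRpd3, and a siRpd3 difference of -0.21. The direction of the siRpd3 difference thus depended on the setting, and that in siMi-2 turned positive only for members without overlap; the causes were not tested. No called ratio of a named gene changed sign in 480 recomputed values, of which 406 stayed within the counting interval. Another pseudocount cannot change the sign of a ratio, and the scaling shifted ratios by less than the 2-fold threshold. Only the choice of transcript could thus have turned a called ratio, and 222 of the 277 members have 1 transcript. Uncalled ratios did change sign under scaling, as that of Hsromega in siRpd3, from 0.05 to -0.64.

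No paired analysis was possible because each condition has 1 library. The depth limits low members most: 10 members had at most 3 reads in siGFP.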
